A study of Mus musculus with 20 samples.

Results

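The expression of 10 genes of the unfolded protein response and the integrated stress response was followed from normal skin (NS) to actinic keratosis (AK) and cutaneous squamous cell carcinoma (cSCC) in mice. The 10 genes were Hspa5, Hsp90b1, Ddit3, Atf4, Xbp1, Trib3, Chac1, Asns, Herpud1 and Ppp1r15a. They were chosen by symbol, and all 10 were found among the 22090 genes of the count table. Bulk mRNA of back skin was sequenced from Hairless SKH-1 mice, all female and 7 months old at the start of the experiment, an immunocompetent hairless strain that forms AK and cSCC under chronic solar-simulated ultraviolet light. There were 8 NS samples (replicates 1, 2 and 4 to 9), 8 AK samples (replicates 10 to 17) and 4 cSCC samples (replicates 18 to 21), from 8 mice of which 4 were irradiated and 4 were not. Every AK and cSCC sample came from an irradiated mouse, while the NS group held skin of both irradiated and unirradiated mice without a label that separates them. Since AK samples shared mice, and the mouse of a sample is not labelled, the p-values measure the spread between samples and not only that between animals.

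When misfolded proteins accumulate in the endoplasmic reticulum (ER), 3 membrane sensors, Ire1, Perk and Atf6, raise the folding capacity of the organelle and lower the load of new protein. Ire1 splices the mRNA of the transcription factor Xbp1, Atf6 is cut to release a transcription factor, and Perk phosphorylates the translation factor eIF2-alpha. Other kinases respond to amino acid shortage, heme shortage and double-stranded RNA by phosphorylating the same factor, and the shared downstream program is the integrated stress response, in which translation of Atf4 rises. Keratinocytes, which make large amounts of structural and membrane protein, use these pathways in differentiation and after ultraviolet light. Gene counts measure neither Xbp1 splicing nor Atf4 translation, so the values below are mRNA levels alone. In bulk tissue, fewer cells of a type and less RNA per cell cannot be told apart.

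Of the cSCC libraries, 3 stood apart and are named before the results. In cSCC replicate 18, the 10 most abundant genes took 49.5% of all counts, against 6.74 to 18.6% in the other 19 libraries, and 4 hemoglobin genes alone took 46.8%, against 0.0917 to 5.45% in NS, 1.00 to 14.3% in AK and 1.44 to 6.02% in the other 3 cSCC samples. The TMM scaling factor of this library was 0.509, where those of the others ran from 0.852 to 1.22, so its levels depend on the scaling more than those of any other sample. Levels below use TMM scaling. For those of the 10 genes where the place of replicate 18 against NS changes, they are also given by library total, with and without the hemoglobin counts. The total without hemoglobin was chosen after seeing the data. Levels of all other genes use TMM scaling alone. In cSCC replicate 21, 8 heart muscle genes summed to 57328 CPM (counts relative to the scaled total of the library, the unit of all levels below), against 8.72 to 42.6 CPM in NS, 12.9 to 79.5 CPM in AK and 80.6 to 157 CPM in the other 3 cSCC samples. Of these 8 genes Actc1, a heart actin, was the highest at 15454 CPM, and Myl7, an atrial myosin light chain, was at 0. In cSCC replicate 20, 7 lung epithelium genes summed to 35922 CPM, against at most 59.3 CPM in any other sample, and Sftpc, a surfactant protein, was the highest at 22389 CPM. Keratinocyte genes such as Krt14 were present in every sample, but their sum over 8 genes was 5783 CPM in cSCC 20 and 4499 CPM in cSCC 21, against 8090 to 21316 CPM in NS, 11364 to 19966 CPM in AK, and 19527 and 18128 CPM in cSCC 18 and 19. Total counts ran from 1624325 to 6295575 in NS, 867219 to 14055206 in AK and 775750 to 7095102 in cSCC, and 3 counts corresponded to 0.225 to 3.78 CPM. Of these 8 keratinocyte genes, Krt10, a keratin of differentiating layers, was 321, 9.23, 44.4 and 11.6 CPM in cSCC, against 899 to 2486 CPM in NS and 231 to 1907 CPM in AK, and Krt1, Krt10 and Lor were lower in cSCC than in NS (3 of 8) and, with Dsp, than in AK (4 of 8). Their part in the stress gene results was not tested. The DEG counts in cSCC of the 10 genes and of other pathway genes are given with and without replicates 20 and 21, as are many single fold changes. Calls of cell type marker genes, such as these keratins, rest on all 4 cSCC samples.

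The promoters of the 10 genes were read from RefSeq (GRCm38.p6, 250 bases before to 50 bases after the start) and searched on both strands for 4 response elements that share no bases in these promoters. The sequences shown are the 250 bases before the start of the 5 genes in which an element was found there, with the found letters in capitals. Elements of these kinds are known to act in the ER and amino acid branches. The ER stress element, bound by Atf6 and the general factor NF-Y, was searched as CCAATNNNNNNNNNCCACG, and was found in Hspa5 at -65 to -47 and in Hsp90b1 at -212 to -194 and, on the opposite strand, at -107 to -89. It was present in 0.119% of 32851 mouse promoters of that length. The ER stress element II, searched as ATTGGNCCACG, was found in Herpud1 at -52 to -42 and in 0.0365% of all promoters. A C/EBP-ATF element, the kind of site bound by Atf4 with a C/EBP partner, was searched as TGATGNAA, which 3.97% of all promoters held. It was found in Asns at -23 to -16, and on the opposite strand in Chac1 at -193 to -186, Herpud1 at -112 to -105 and Trib3 at 15 to 22 after the start, the last not printed. The element TGACGTGG, a binding sequence of Atf6 and Xbp1 held by 0.676% of promoters, was found in none of the 10, and Ddit3, Atf4, Xbp1 and Ppp1r15a had none of the 4 elements in this window. A match of letters describes the window and shows no binding. Copies that differ from the searched letters were not looked for, so the numbers of elements are those of exact matches. The stretches lie at chr2:34771840-34772089, plus strand for Hspa5, chr10:86705445-86705694, minus strand for Hsp90b1, chr8:94386179-94386428, plus strand for Herpud1, chr6:7693210-7693459, minus strand for Asns and chr2:119350992-119351241, plus strand for Chac1, each written 5′ to 3′ along the gene.
Hspa5: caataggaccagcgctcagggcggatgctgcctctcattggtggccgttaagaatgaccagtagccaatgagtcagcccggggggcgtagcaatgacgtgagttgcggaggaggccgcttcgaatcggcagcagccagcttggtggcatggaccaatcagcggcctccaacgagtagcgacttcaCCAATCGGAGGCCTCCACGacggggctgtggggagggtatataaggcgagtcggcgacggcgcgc
Hsp90b1: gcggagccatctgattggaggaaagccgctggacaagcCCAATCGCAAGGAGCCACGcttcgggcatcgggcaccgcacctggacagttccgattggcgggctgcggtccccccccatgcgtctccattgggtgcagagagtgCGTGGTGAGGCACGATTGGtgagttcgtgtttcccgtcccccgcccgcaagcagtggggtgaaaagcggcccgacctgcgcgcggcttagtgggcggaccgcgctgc
Herpud1: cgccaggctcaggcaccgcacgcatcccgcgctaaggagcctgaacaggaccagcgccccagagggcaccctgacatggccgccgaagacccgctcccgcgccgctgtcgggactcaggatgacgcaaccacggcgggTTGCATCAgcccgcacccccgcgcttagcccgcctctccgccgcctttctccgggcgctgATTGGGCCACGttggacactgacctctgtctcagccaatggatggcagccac
Asns: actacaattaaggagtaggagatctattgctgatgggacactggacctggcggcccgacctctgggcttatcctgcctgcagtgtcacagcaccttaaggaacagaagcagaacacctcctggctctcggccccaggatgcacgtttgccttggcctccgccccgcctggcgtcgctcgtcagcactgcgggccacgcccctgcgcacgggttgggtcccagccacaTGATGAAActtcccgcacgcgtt
Chac1: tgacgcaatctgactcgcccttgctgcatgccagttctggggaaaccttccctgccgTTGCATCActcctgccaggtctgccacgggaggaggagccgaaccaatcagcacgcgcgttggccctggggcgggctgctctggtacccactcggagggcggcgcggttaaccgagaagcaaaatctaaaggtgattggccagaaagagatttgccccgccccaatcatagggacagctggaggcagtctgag

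The 10 mRNAs spanned a wide range of levels. Per kilobase of exon, the mean level in NS was highest for Hspa5 at 148 CPM per kb and Hsp90b1 at 136 CPM per kb, whose ranges overlapped. Atf4 followed at 57.6 CPM per kb, then Herpud1 at 42.5 and Xbp1 at 41.5 CPM per kb, a pair that did not differ beyond the spread between samples. Asns stood at 22.1 CPM per kb and Ddit3 at 17.4 CPM per kb. Trib3 at 4.05, Ppp1r15a at 3.97 and Chac1 at 1.93 CPM per kb were the lowest, and Chac1 had no count in 1 NS and 2 AK samples. In cSCC, Hspa5 reached 345 CPM per kb while Hsp90b1 was at 165 CPM per kb.

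**Figure D1:**
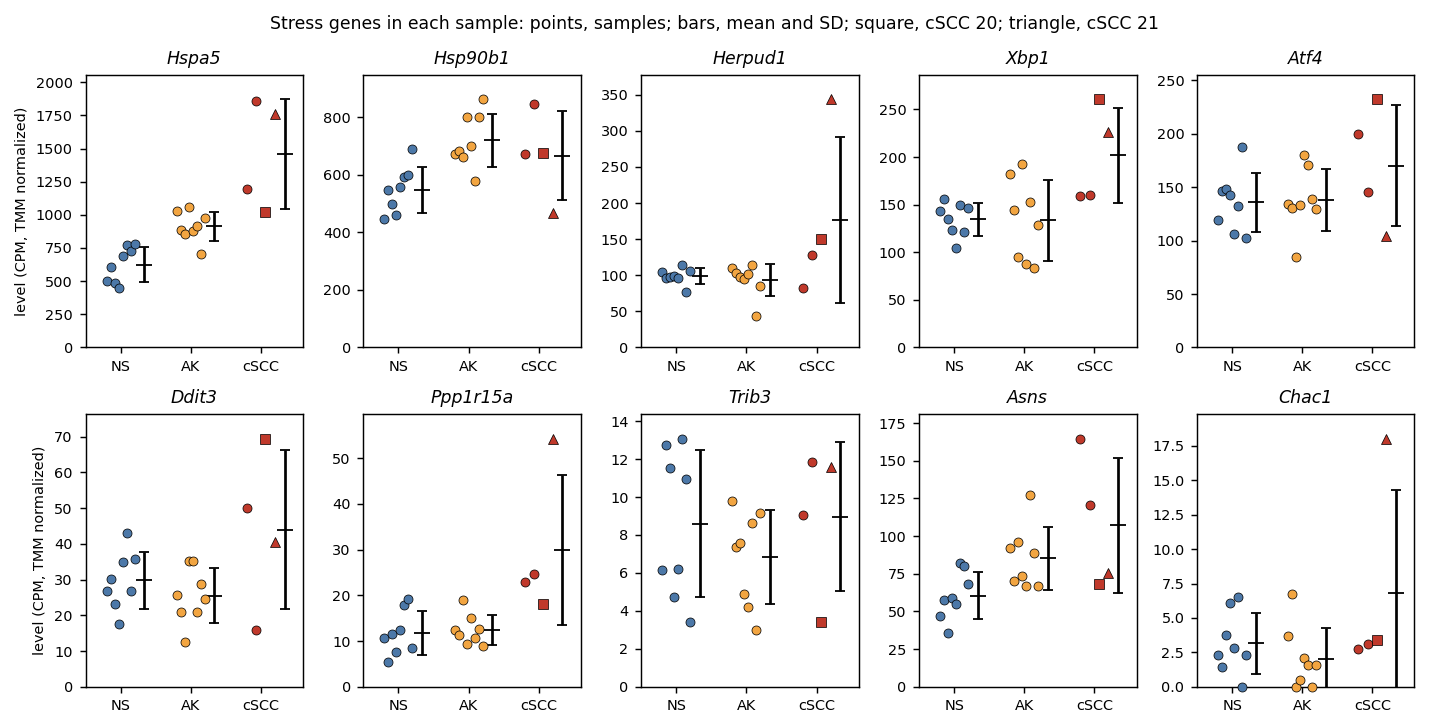
Level of each stress gene in each sample, in CPM on a linear axis from 0, for NS (8 samples), AK (8) and cSCC (4). Black bars give the mean and SD, the square is cSCC replicate 20 and the triangle is cSCC replicate 21. Levels use TMM scaling, with which all 4 cSCC points of Hspa5 and Xbp1 lie above every NS point, and replicate 21 is the highest point for Herpud1, Ppp1r15a and Chac1.

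The 3 groups were compared in pairs, and a differentially expressed gene (DEG) had an adjusted p below 0.05 and a fold change above 1.5 or below 0.67. All 10 genes passed the filter on low counts in each comparison. From NS to AK, 0 of the 10 were DEGs by edgeR, against 2.26% of 11677 genes tested that were higher and 2.38% that were lower in AK. At an unadjusted p under 0.05, 3 of the 10 genes passed, Hspa5, Hsp90b1 and Asns, and DESeq2 and limma also gave 0 DEGs. The share of all genes at that unadjusted cut is not given here, so this count and those like it below have no background. The median log2 fold change was -0.01 over the 10 genes and -0.04 over all genes tested. In cSCC, 3 of the 10 genes were DEGs against NS (Hspa5, Asns and Ppp1r15a), all of them up, where 11.7% of 12097 genes tested were higher and 7.65% lower. All 10 had a positive log2 fold change, with a median of 0.76 against 0.14 over all genes tested. Against AK, 3 of the 10 were higher in cSCC (Hspa5, Herpud1 and Ppp1r15a), where 16% of 12032 genes were higher and 8.34% lower, with a median of 0.77 against 0.17 over all genes. The comparisons of cSCC with NS and with AK share the cSCC samples.

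These counts rested on few libraries. Without cSCC replicate 21, 2 of the 10 genes were DEGs against NS (Hspa5 and Asns), where 6.97% of all genes were higher. Against AK 0 were DEGs by edgeR, where 6.9% of all genes were higher DEGs. In that fit 4 had an unadjusted p under 0.05, a cut for which no share of all genes is given. With replicates 20 and 21 both left out the DEGs were Hspa5 and Asns against NS, where 5.74% of all genes were higher, and Hspa5 alone against AK, where 6.71% were. Scaling by library size alone left 1 DEG of 10 in each cSCC comparison, Hspa5 against NS and Ppp1r15a against AK. That scaling moved the median of all genes to -0.17 against NS and -0.09 against AK, and turned the split of all DEGs from 1414 higher and 926 lower to 625 and 1332 against NS, from 1931 and 1004 to 1021 and 1356 against AK, and from 264 and 278 to 176 and 481 between AK and NS. Relative to the median of all genes, Hspa5 was higher in cSCC than in NS by 1.13 with the main scaling and by 1.19 with library size alone on the log2 scale. Without cSCC replicate 18, 4 of the 10 were higher than in NS (Hspa5, Xbp1, Herpud1 and Ppp1r15a) and 3 than in AK.

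**Figure D2:**
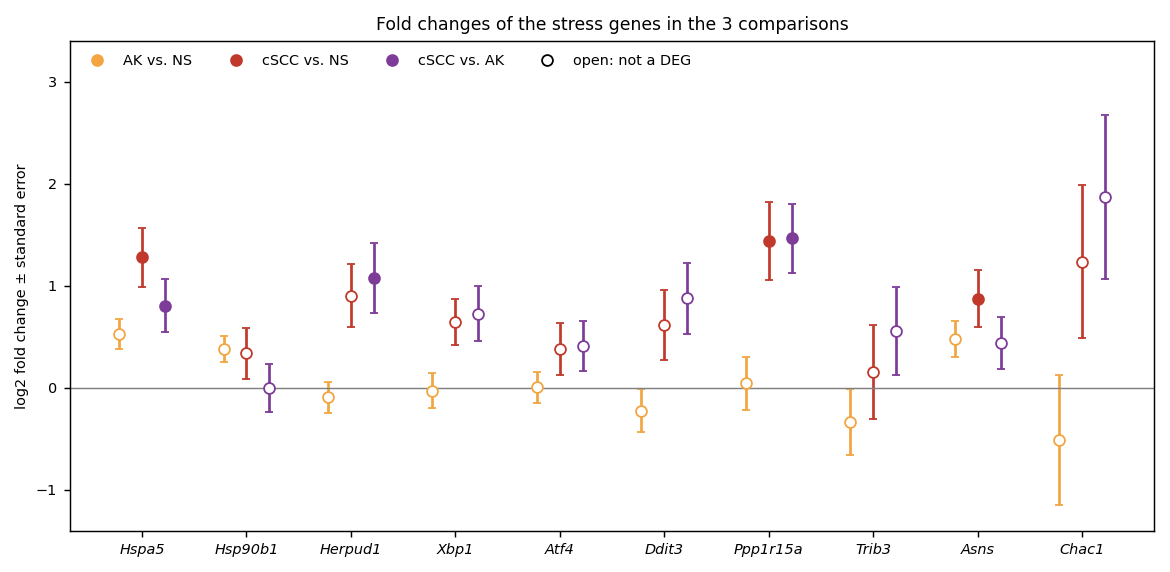
Log2 fold change of each stress gene, with its standard error, between the 3 pairs of groups, each in its own colour. Filled points are DEGs and open points are not, so that the AK vs. NS series is open throughout while Hspa5 and Ppp1r15a are filled in both cSCC comparisons.

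Hspa5 encodes BiP, the main ER chaperone of the Hsp70 family, which also holds the 3 sensors inactive in unstressed cells. Its gene lies at chr2:34771970-34777547 on the plus strand (GRCm38). In NS the level ranged from 445 to 778 CPM with a median of 648 CPM, and in AK from 706 to 1056 CPM with a median of 902 CPM. The 4 cSCC samples stood at 1194, 1859, 1018 and 1757 CPM (replicates 18 to 21). Thus 7 of 8 AK samples lay above every NS sample, all 4 cSCC samples lay above every NS sample, and 3 of 4 lay above every AK sample. By library total, replicate 18 stood at 607 CPM, within the NS range of 474 to 813 CPM, and the other 3 cSCC samples remained above every NS and AK sample. With the hemoglobin counts taken out of the total, replicate 18 stood at 1142 CPM and all 4 cSCC samples were above every NS and AK sample. The group means were 626 ± 134 (SD, n = 8), 914 ± 111 (SD, n = 8) and 1457 ± 414 CPM (SD, n = 4). The rise from NS to AK had an adjusted p of 0.0415 but a fold of 1.45 (log2 0.53, SE 0.15), below the limit set for a DEG. In cSCC, Hspa5 rose 2.42-fold over NS (log2 1.28, SE 0.29, adjusted p = 0.00876) and 1.75-fold over AK (log2 0.80, SE 0.26, adjusted p = 0.0340).

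The difference of Hspa5 between cSCC and NS remained a DEG when any 1 of the 12 samples was left out, with log2 values between 1.14 and 1.40, and without replicates 20 and 21 together it was 1.31 (SE 0.30, adjusted p = 0.0155). Replicates 18 and 19 had lung gene sums of 15.3 and 15.8 CPM, within the NS range, but heart muscle sums of 80.6 and 106 CPM and endothelial sums of 112 and 103 CPM, both above the NS and AK ranges, and the part of these transcripts was not tested. Without replicate 18 the log2 difference from NS was 1.35 (adjusted p = 0.00551). The difference from AK was less stable. It lost its call without any 1 of the 8 AK samples, cSCC 19 or cSCC 21, with adjusted p-values between 0.0208 and 0.102 over the 12 such fits, and it kept the call without replicates 20 and 21 together (log2 0.82, adjusted p = 0.0363).

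Hsp90b1, which encodes the ER chaperone Grp94, works beside BiP in folding secreted and membrane proteins. Its promoter holds exact matches of the ER stress element at 2 positions. Its gene lies at chr10:86690209-86705509 on the minus strand and overlaps 3 annotated non-coding genes, a pseudogene on the opposite strand among them, so that some reads could be shared. The level ranged from 446 to 689 CPM in NS (median 552 CPM) and from 580 to 863 CPM in AK (median 692 CPM), and was 674, 848, 677 and 468 CPM in cSCC. All 8 AK samples were above the NS median, 4 of them above every NS sample, whereas cSCC replicate 21 fell within the lower part of the NS range. By library total, cSCC replicates 18 and 21 were at 343 and 399 CPM, below the NS range of 491 to 720 CPM. With the hemoglobin counts taken out, replicate 18 was at 645 CPM, inside an NS range of 493 to 761 CPM, and replicate 21 at 424 CPM, below it. No difference passed the threshold: log2 0.38 (SE 0.13, adjusted p = 0.0843) for AK vs. NS, 0.34 (SE 0.25, adjusted p = 0.369) for cSCC vs. NS, and -0.00 (SE 0.23, adjusted p = 0.999) for cSCC vs. AK. The ratio of Hspa5 to Hsp90b1 per kilobase within a sample averaged 1.08 in the NS samples (SD 0.115), 1.23 in the AK samples (SD 0.209) and 2.20 in the cSCC samples (SD 0.960). It ran from 0.920 to 1.24 in NS, 0.841 to 1.504 in AK and 1.43 to 3.58 in cSCC, so the cSCC values did not overlap those of NS and overlapped those of AK. This ratio was formed after both genes had been seen and was not tested.

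Herpud1 encodes an ER membrane protein of ER-associated degradation, the route that sends misfolded proteins to the proteasome. The gene is at chr8:94386438-94395377 on the plus strand and overlaps Gm15890 in antisense, and the strand setting of the counting is not given in the sources used here. NS samples ranged from 76.4 to 115 CPM (median 98.7 CPM) and AK samples from 43.7 to 115 CPM (median 99.7 CPM). The cSCC samples stood at 82.7, 128, 150 and 344 CPM. Replicates 19, 20 and 21 were above every NS and AK sample, and replicate 18 was inside both ranges. By library total, replicate 18 was at 42.0 CPM, below the NS range of 75.6 to 128 CPM and the AK range of 45.5 to 121 CPM. With the hemoglobin counts taken out it was at 79.0 CPM, inside both ranges. Herpud1 rose 2.11-fold in cSCC over AK (log2 1.07, SE 0.34, adjusted p = 0.0344), while against NS the log2 difference of 0.90 (SE 0.31) had an adjusted p of 0.0535. Without replicate 21 the log2 differences were 0.38 (adjusted p = 0.369) and 0.33 (adjusted p = 0.347), and without replicates 20 and 21 they were 0.25 (adjusted p = 0.631) and 0.12 (adjusted p = 0.781). The call against AK was also lost without AK replicates 12, 13, 14, 16 or 17. Between AK and NS the log2 difference was -0.09 (SE 0.15, adjusted p = 0.742).

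Of the 3 transcription factors, none was a DEG in any comparison with the main settings, while Xbp1 and Ddit3 became DEGs under some alternatives. Xbp1, the target of Ire1 splicing and also required by secretory plasma cells, lies at chr11:5520659-5525893 on the plus strand. It ranged from 104 to 156 CPM in NS (median 139 CPM) and from 83.3 to 193 CPM in AK (median 137 CPM), and was 159, 160, 261 and 226 CPM in cSCC. All 4 cSCC samples were thus above every NS sample, 2 of them narrowly. By library total, replicate 18 stood at 80.9 CPM, below the NS range of 114 to 174 CPM, and with the hemoglobin counts taken out it was at 152 CPM, inside an NS range of 115 to 175 CPM. With TMM scaling, Xbp1 and Hspa5 were the 2 genes of the 10 whose cSCC and NS levels did not overlap, where 2.7% of all genes tested did so with cSCC higher. By library total, 0 of the 10 were without overlap, against 0.546% of all genes. With the hemoglobin counts taken out 2 were, Hspa5 and Ppp1r15a, and the share of all genes for that scaling is not given here. With TMM scaling none of the 10 was without overlap between AK and NS or between cSCC and AK, where 0.394% and 3.33% of genes tested were. The log2 difference of Xbp1 was 0.65 (SE 0.22, adjusted p = 0.0548) against NS, 0.73 (SE 0.27, adjusted p = 0.0626) against AK and -0.03 (SE 0.17) between AK and NS. The sum of 8 plasma and B cell genes was 117, 72.1, 432 and 12.6 CPM in cSCC, 7.80 to 1609 CPM in NS and 83.7 to 1364 CPM in AK. Both this sum and Xbp1 were highest in replicate 20 among the cSCC samples, and the part of these cells in the Xbp1 levels was not tested.

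Atf4, the effector whose translation rises after eIF2-alpha phosphorylation, lies at chr15:80255184-80257541 on the plus strand. Its mRNA ranged from 103 to 188 CPM in NS (median 138 CPM) and from 84.5 to 180 CPM in AK (median 134 CPM). In cSCC it was 199, 145, 232 and 104 CPM, so replicates 18 and 20 lay above all NS and AK samples and replicate 21 near the lowest NS sample. By library total, replicates 18 and 21 were at 101 and 88.9 CPM, below the NS range of 107 to 186 CPM. With the hemoglobin counts taken out, replicate 18 was at 191 CPM, above the highest NS sample at 188 CPM and below the highest AK sample at 194 CPM. The log2 differences were 0.01 (SE 0.15) for AK vs. NS, 0.38 (SE 0.25, adjusted p = 0.309) for cSCC vs. NS and 0.41 (SE 0.24, adjusted p = 0.228) for cSCC vs. AK.

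Ddit3, which encodes Chop, a factor induced by Atf4 that promotes cell death under lasting ER stress, lies at chr10:127290829-127293753 on the plus strand. It ranged from 17.5 to 42.9 CPM in NS (median 28.5 CPM) and from 12.6 to 35.3 CPM in AK (median 25.0 CPM). The cSCC samples were spread over 50.0, 15.8, 69.4 and 40.5 CPM. Replicate 19 was below every NS sample and replicate 20 was the highest of all 20. By library total, replicate 18 was at 25.4 CPM, inside the NS range of 18.7 to 42.7 CPM. With the hemoglobin counts taken out it was at 47.8 CPM, above an NS range of 18.8 to 43.0 CPM. The SD of 22.3 CPM around the cSCC mean of 43.9 CPM (n = 4) went with log2 differences of 0.61 (SE 0.34, adjusted p = 0.226) against NS and 0.88 (SE 0.35, adjusted p = 0.0766) against AK. From NS to AK the log2 difference was -0.22 (SE 0.21, adjusted p = 0.534).

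Ppp1r15a and Trib3 act as brakes on the response. Ppp1r15a encodes Gadd34, which brings protein phosphatase 1 to eIF2-alpha and so restores translation, and its gene lies at chr7:45522916-45526268 on the minus strand. Its level ranged from 5.50 to 19.2 CPM in NS (median 11.1 CPM) and from 8.91 to 18.9 CPM in AK (median 11.9 CPM). The cSCC samples stood at 22.9, 24.6, 18.2 and 54.2 CPM, with replicates 18, 19 and 21 above every NS and AK sample and replicate 20 within both ranges. By library total, replicate 18 was at 11.7 CPM, within the NS range, and the other 3 were above every NS and AK sample, and with the hemoglobin counts taken out all 4 were. Ppp1r15a rose 2.72-fold over NS (log2 1.44, SE 0.38, adjusted p = 0.0190) and 2.76-fold over AK (log2 1.47, SE 0.34, adjusted p = 0.00864). Without cSCC replicate 21 the log2 differences were 0.96 (adjusted p = 0.106) and 0.87 (adjusted p = 0.0692), so both calls were lost without that sample, and without replicates 20 and 21 they were 1.05 (adjusted p = 0.124) and 1.04 (adjusted p = 0.0608). No other single sample ended either call. Between AK and NS the log2 difference was 0.04 (SE 0.26). The gene overlaps Tulp2 on the opposite strand, and Tulp2 itself had at most 1.39 CPM in any sample.

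Trib3, a pseudokinase induced by Atf4 and Chop that restrains Atf4 activity, lies at chr2:152337422-152344032 on the minus strand. Mean levels were 8.60 CPM for NS (SD 3.88), 6.83 CPM for AK (SD 2.49) and 8.97 CPM for cSCC (SD 3.92), with single cSCC values of 9.03, 11.9, 3.41 and 11.6 CPM. The 3.41 CPM of replicate 20 were 3 counts. All cSCC values lay within the NS range, and the log2 differences were -0.33 (SE 0.33) for AK vs. NS, 0.15 (SE 0.46) for cSCC vs. NS and 0.56 (SE 0.43, adjusted p = 0.358) for cSCC vs. AK.

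Asns and Chac1 are enzymes under Atf4 control. Asns makes asparagine, and its gene lies at chr6:7675169-7693254 on the minus strand. It ranged from 35.6 to 81.8 CPM in NS (median 58.0 CPM) and from 66.9 to 127 CPM in AK (median 81.0 CPM), and was 165, 120, 68.3 and 75.4 CPM in cSCC. Replicates 18 and 19 were above every NS sample (replicate 18 at 83.7 CPM by library total, where the highest NS sample was at 81.5 CPM), whereas replicates 20 and 21, those with lung and heart genes, were within the NS range. Asns rose 1.83-fold in cSCC over NS (log2 0.87, SE 0.28, adjusted p = 0.0410), and without replicates 20 and 21 the log2 difference was 1.26 (SE 0.28, adjusted p = 0.0156). The call was lost without NS replicates 1, 2, 4, 5, 6 or 9, without cSCC 19, and without cSCC 18, where the log2 difference was 0.59 (adjusted p = 0.134). Between AK and NS the log2 difference was 0.48 (SE 0.18, adjusted p = 0.105), and between cSCC and AK it was 0.44 (SE 0.26, adjusted p = 0.223).

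Chac1, which degrades glutathione, lies at chr2:119351229-119354381 on the plus strand and was close to the limit of counting. It ranged from 0 to 6.54 CPM in NS and from 0 to 6.72 CPM in AK. In cSCC replicates 18, 19 and 20 it was 2.78, 3.08 and 3.41 CPM, from 4, 7 and 3 counts, and in replicate 21 it was 18.03 CPM, from 109 counts. Only replicate 21 lay outside the NS and AK ranges. The log2 difference was 1.24 (SE 0.75, adjusted p = 0.265) against NS and 1.87 (SE 0.80, adjusted p = 0.0997) against AK, and without replicate 21 it was -0.01 (SE 0.84) against NS and 0.48 (SE 0.93) against AK.

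**Figure D3:**
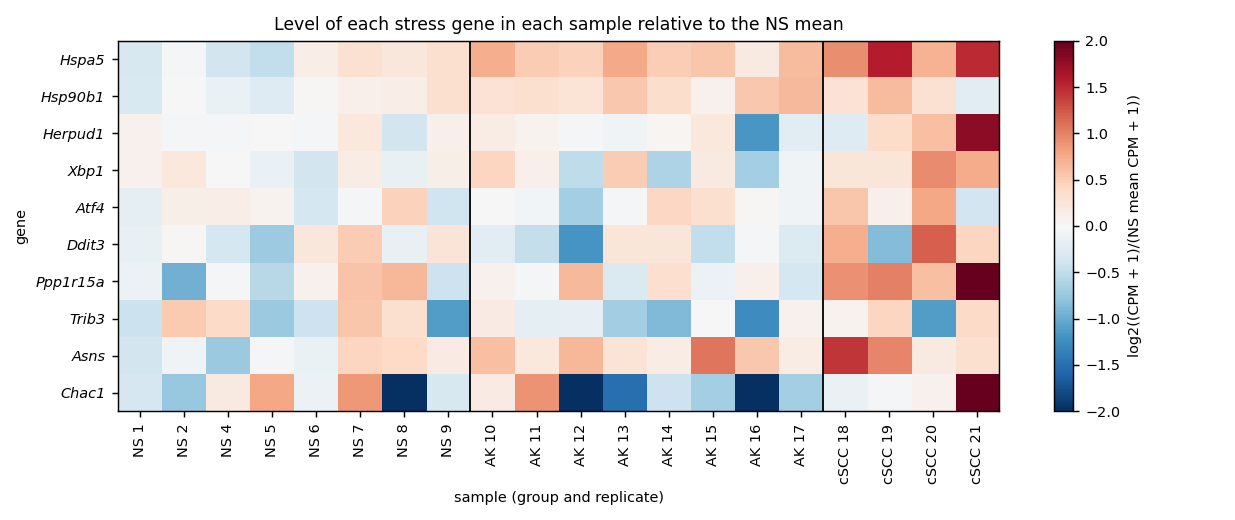
Level of each stress gene (rows) in each of the 20 samples (columns, grouped as NS, AK and cSCC), as log2 of CPM + 1 relative to log2 of the NS mean CPM + 1, with the colour scale cut at -2 and 2. Levels use TMM scaling. Hspa5 is red in every cSCC column, while Herpud1, Ppp1r15a and Chac1 are deepest red in cSCC 21, and Ddit3 and Xbp1 in cSCC 20.

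The 4 cSCC samples thus did not share 1 profile of the 10 genes. Of the 10, 3 were highest in cSCC 20 (Ddit3, Atf4 and Xbp1) and 3 in cSCC 21 (Chac1, Herpud1 and Ppp1r15a). With TMM scaling Asns was highest in cSCC 18, Hspa5 in cSCC 19, Hsp90b1 in AK 17 and Trib3 in NS 7. By library total, Asns at 137 CPM and Hsp90b1 at 967 CPM were highest in cSCC 19. The SD was 28.4% of the mean for Hspa5 in cSCC, 65.3% for Herpud1, 54.7% for Ppp1r15a and 50.7% for Ddit3, against 21.5%, 11.2%, 41.0% and 26.9% in NS.

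**Figure D4:**
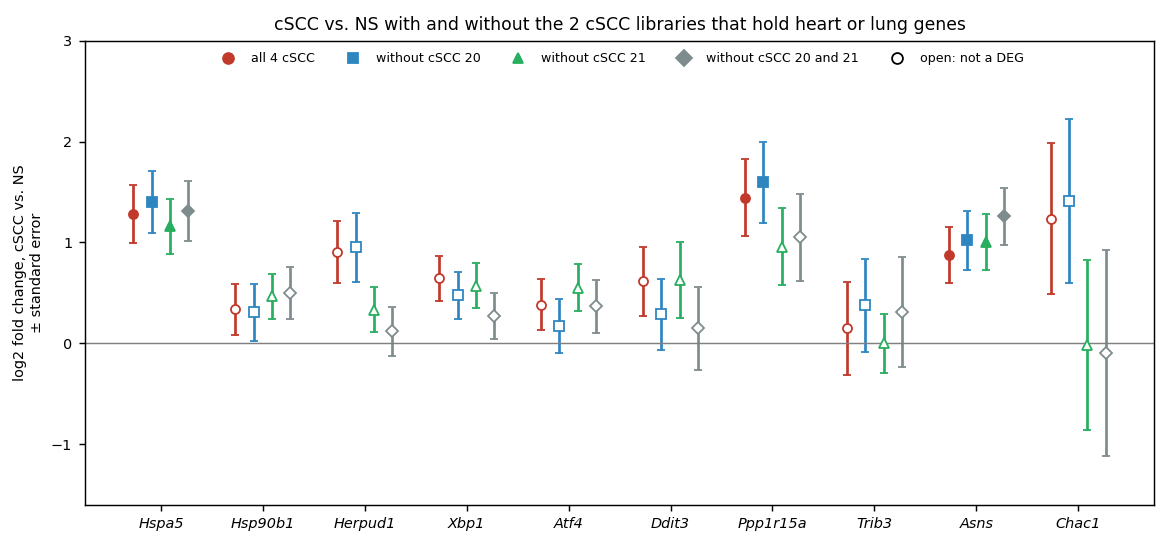
Log2 fold change of each stress gene in cSCC vs. NS, with its standard error, for all 4 cSCC samples and without replicate 20, replicate 21 or both. Filled symbols are DEGs. Hspa5 and Asns stay filled in all 4 series, while Ppp1r15a is open and Herpud1 and Chac1 move toward 0 wherever replicate 21 is left out.

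Beyond the 10 genes, 79 other genes of the pathways were listed by role, and 73 of them were tested in each comparison. Their levels are given with TMM scaling alone. The place of cSCC 18 outside an NS range therefore rests on its factor of 0.509 and was not examined by library total. From NS to AK, 7 of the 73 were higher and 0 lower, where 2.26% of all genes were higher and 2.38% lower. In cSCC, 17 rose and 3 fell relative to NS, where 11.7% of all genes were higher and 7.65% lower. Against AK, 21 were higher and 3 lower in cSCC, where 16% of all genes were higher and 8.34% lower. The counts of each list below stand beside these same shares. The median log2 fold change over the 73 was 0.13 for AK vs. NS, 0.57 for cSCC vs. NS and 0.34 for cSCC vs. AK, against the medians of all genes of -0.04, 0.14 and 0.17. With library size alone the split was 2 higher and 2 lower, 6 and 3, and 7 and 5. The shares of all genes higher and lower were then 1.51% and 4.12%, 5.17% and 11%, and 8.49% and 11.3%. Without cSCC replicates 20 and 21 the split was 17 and 1 of 73 against NS, where 5.74% of all genes were higher and 6.46% lower. Against AK it was 15 and 1 of 74, where 6.71% of all genes were higher and 5.9% lower.

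**Figure D5:**
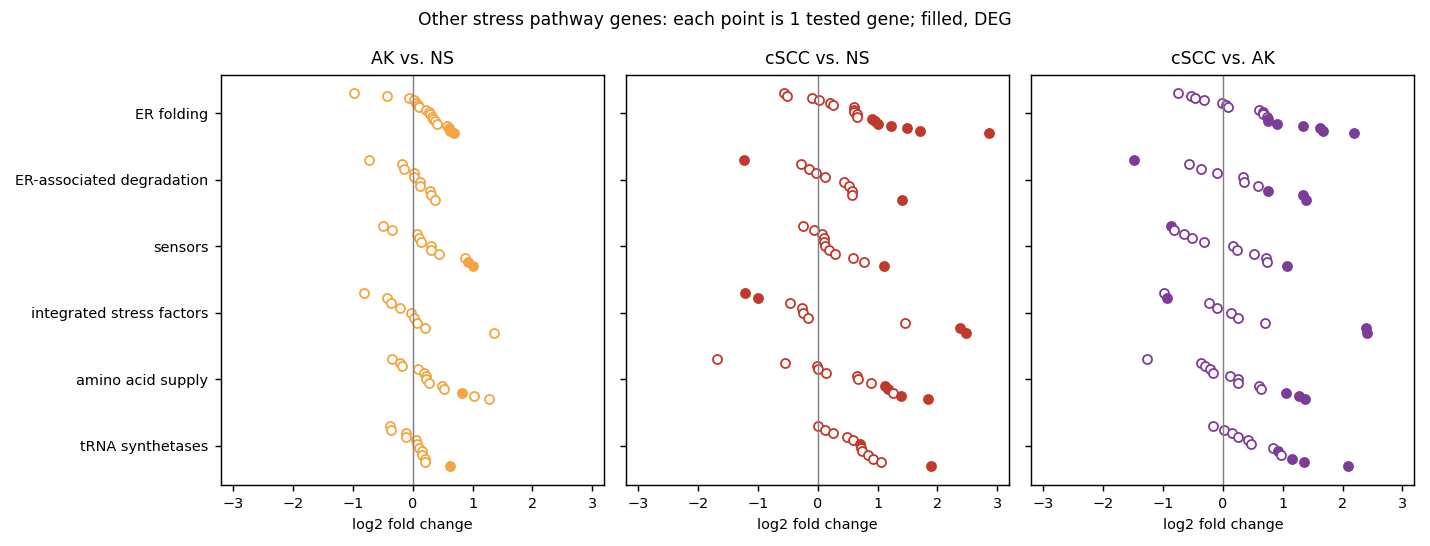
Log2 fold change of the tested genes of 6 pathway lists in the 3 pairwise comparisons, 1 in each panel, with 1 point for each gene and filled points for DEGs. In the ER folding list, 3, 7 and 8 of 18 genes are DEGs in the 3 panels, all on the positive side.

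Among 18 ER folding genes, 7 were DEGs in cSCC vs. NS, all higher, and the median log2 fold change was 0.63. Ero1l, the oxidase that drives disulfide formation in the ER and is also known to respond to hypoxia, stood at 361, 1298, 273 and 111 CPM in cSCC against 52.6 to 112 CPM in NS (log2 2.85, SE 0.45, adjusted p = 0.00175). Replicate 21 lay just inside the NS range and the other 3 above it. Sdf2l1, a cofactor of BiP, was 28.5, 40.4, 33.0 and 48.5 CPM in cSCC, all above the 6.11 to 18.9 CPM of NS (log2 1.71, SE 0.32, adjusted p = 0.00407). Pdia4, a disulfide isomerase, was 105, 172, 135 and 141 CPM, all above the 38.5 to 69.1 CPM of NS and the 63.6 to 93.7 CPM of AK (log2 1.49, SE 0.22, adjusted p = 0.00150). The other 4 higher genes, Calr, Pdia3, Pdia6 and P4hb, had log2 values between 0.91 and 1.22, and are named after their values were seen. Without replicates 20 and 21, 8 of 18 were higher, with Ero1l at 3.54 (adjusted p = 0.000371), Sdf2l1 at 1.55 (adjusted p = 0.0251) and Pdia4 at 1.46 (adjusted p = 0.00581). Library size alone left 3 of 18 higher and 0 lower.

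Against AK, 8 of 18 ER folding genes were higher in cSCC, with Ero1l at log2 2.20 (SE 0.45, adjusted p = 0.00480), Sdf2l1 at 1.67 (SE 0.32, adjusted p = 0.00357) and Hyou1, another ER chaperone, at 1.63 (SE 0.52, adjusted p = 0.0348). Hyou1 stood at 33.0 CPM in cSCC 20 and at 4.17 to 11.6 CPM in the other 3, and without replicates 20 and 21 its log2 difference was 0.27 (adjusted p = 0.799). Without these replicates 8 of 18 genes were higher, with Ppib, an ER prolyl isomerase (log2 0.97, adjusted p = 0.00397), among them and Hyou1 not, while library size alone gave 3 higher and 1 lower. Between AK and NS, 3 of the 18 were higher, namely Ero1l (log2 0.69, SE 0.18, adjusted p = 0.0351), Pdia4 (0.63, SE 0.13, adjusted p = 0.0190) and Creld2, an ER stress-inducible gene (0.60, SE 0.16, adjusted p = 0.0388). In AK, 7 of 8 samples were above every NS sample for Pdia4 and for Creld2. Library size alone left 0 of these 18 genes as DEGs between AK and NS.

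Among 11 sensors and kinases tested, 3 kinases of eIF2-alpha differed between groups. Eif2ak2, the kinase activated by double-stranded RNA and induced by interferon, ranged from 34.5 to 55.6 CPM in AK against 9.56 to 33.2 CPM in NS, so that all 8 AK samples were above every NS sample (log2 1.01, SE 0.21, adjusted p = 0.0190). In cSCC it was 43.8, 17.1, 18.2 and 15.55 CPM, lower than in AK (log2 -0.87, SE 0.29, adjusted p = 0.0442). Only cSCC 18 was inside the AK range, and without replicates 20 and 21 the log2 difference from AK was -0.55 (adjusted p = 0.295). Eif2ak3, which encodes Perk, was higher in AK than in NS (19.4 ± 4.16 against 10.1 ± 3.52 CPM, SD, n = 8 each, log2 0.92, SE 0.22, adjusted p = 0.0263). Eif2ak1, the heme-regulated kinase, was 41.7, 34.3, 33.0 and 60.5 CPM in cSCC, all above the 12.2 to 28.2 CPM of NS (log2 1.11, SE 0.27, adjusted p = 0.0138), and was higher than in AK (log2 1.07, SE 0.26, adjusted p = 0.0112). Without replicates 20 and 21 its log2 differences were 0.90 (adjusted p = 0.0756) and 0.82 (adjusted p = 0.0740). Of the 11 sensors tested, 2 were higher in AK than in NS, 1 was higher in cSCC than in NS, and against AK 1 was higher and 1 lower in cSCC.

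In ER-associated degradation, 0 of 10 genes were DEGs between AK and NS by edgeR, 3 had an unadjusted p under 0.05, and DESeq2 and limma called 1 each. Shares of all genes for the unadjusted cut and these 2 tools are not given. In cSCC, 2 members of the same mannosidase-like family that trims misfolded glycoproteins moved in opposite directions. Edem2 stood at 35.4, 59.8, 36.4 and 29.1 CPM, all above the 6.17 to 27.04 CPM of NS (log2 1.40, SE 0.34, adjusted p = 0.0135). Edem3 stood at 6.25, 14.1, 20.5 and 12.2 CPM, all below the 21.7 to 48.3 CPM of NS (log2 -1.24, SE 0.35, adjusted p = 0.0245). Against AK, 3 of the 10 genes were higher and 1 lower in cSCC, and 1 of the 3 is not reported here. The log2 differences from AK were 1.33 for Edem2 and -1.48 for Edem3, and both calls held in both comparisons without replicates 20 and 21. Os9, an ER lectin, was also higher in cSCC than in AK (log2 1.38, adjusted p = 0.0308), but not without replicates 20 and 21 (adjusted p = 0.270).

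Of 9 integrated stress factors tested, 2 rose and 2 fell in cSCC relative to NS. Ddit4, an inhibitor of mTORC1 signalling, was 20.8, 33.4, 9.10 and 90.3 CPM in cSCC against 4.35 to 11.5 CPM in NS (log2 2.38, SE 0.48, adjusted p = 0.00555), and it stayed higher without replicates 20 and 21 (log2 1.82, adjusted p = 0.0182). Vldlr, a lipoprotein receptor, was at 517 CPM in cSCC 21 and at 16.3 to 52.1 CPM in the other 3, and its log2 difference from NS was 2.48 with all 4 samples (adjusted p = 0.0272) and 0.21 without replicates 20 and 21 (adjusted p = 0.854). Cebpg, a dimer partner of Atf4, was lower in cSCC than in NS (log2 -1.005, SE 0.33, adjusted p = 0.0437) and AK (log2 -0.94, adjusted p = 0.0405). Nupr1, a stress-induced chromatin protein, was lower than in NS (log2 -1.22, SE 0.41, adjusted p = 0.0481). Without replicates 20 and 21, Cebpg had a log2 difference from NS of -0.55 (adjusted p = 0.182) and Nupr1 of -0.93 (adjusted p = 0.0577). Against AK, Ddit4 (log2 2.41, adjusted p = 0.00870) and Vldlr (log2 2.39, adjusted p = 0.0185) were higher in cSCC. None of the 9 was a DEG between AK and NS by edgeR, where 2 had an unadjusted p under 0.05 and DESeq2 and limma called 1 each, again without shares of all genes. Without replicates 20 and 21, Vldlr had a log2 difference from AK of 0.02 (adjusted p = 0.985) and Cebpg of -0.48 (adjusted p = 0.215).

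Amino acid supply genes, the group to which Asns belongs by function, held 4 higher and 0 lower of 13 in cSCC vs. NS. Slc3a2, the shared heavy chain of several amino acid transporters, was 106, 132, 107 and 116 CPM in cSCC, all above the 40.0 to 77.4 CPM of NS (log2 1.18, SE 0.23, adjusted p = 0.00472). Cth, which makes cysteine, differed by log2 1.84 (SE 0.61, adjusted p = 0.0487), the mitochondrial serine enzyme Shmt2 by 1.40 (SE 0.41, adjusted p = 0.0299) and Phgdh, the first enzyme of serine synthesis, by 1.12 (SE 0.34, adjusted p = 0.0322). Without replicates 20 and 21, Slc3a2 and Phgdh remained DEGs against NS, with log2 differences of 1.20 and 1.34, while Cth (adjusted p = 0.0576) and Shmt2 (adjusted p = 0.195) did not. Against AK, Slc3a2, Phgdh and Shmt2 were higher in cSCC, at log2 1.05, 1.37 and 1.26, and Phgdh alone of these was a DEG without replicates 20 and 21. In AK vs. NS, Slc7a1, a transporter of basic amino acids, was the 1 DEG of 13 (log2 0.82, SE 0.22, adjusted p = 0.0390), and with library size alone it was none (log2 0.73, adjusted p = 0.0703).

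Of 12 tRNA synthetases, which Atf4 is known to induce, 2 were higher in cSCC than in NS, the tryptophan enzyme Wars, also known to be induced by interferon (log2 1.89, SE 0.43, adjusted p = 0.00960), and the serine enzyme Sars (log2 0.71, SE 0.23, adjusted p = 0.0453). Wars stood at 14.6, 34.7, 11.4 and 76.9 CPM in cSCC against 6.17 to 14.1 CPM in NS. Against AK, 4 of 12 were higher, with log2 values of 2.09 for Wars, 1.36 for Cars, 1.15 for Sars and 0.92 for Yars. Without replicates 20 and 21 these 4 remained DEGs against AK, and against NS Wars remained (log2 1.36, adjusted p = 0.0437) and Sars did not (adjusted p = 0.0672). In AK vs. NS, Nars was the 1 DEG of 12 (log2 0.62, SE 0.15, adjusted p = 0.0283). With library size alone its log2 difference was 0.53, below the limit on the fold, and the list kept 1 DEG in 8 of the 16 fits that left out a sample.

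Other transcripts that moved with the cSCC group are given as values. All 6 endothelial genes were higher DEGs in cSCC against NS and AK in the fits with all 4 cSCC samples. Their sum was 112, 103, 162 and 507 CPM in cSCC against 22.7 to 78.5 CPM in NS and 25.1 to 96.5 CPM in AK. Only Tie1 was above every NS sample in all 4, at 6.95, 5.71, 14.8 and 66.0 CPM against at most 2.29 CPM in NS. Kdr, a vascular growth factor receptor, was at 10.4, 7.47, 13.7 and 181 CPM in cSCC, against 2.44 to 12.6 CPM in NS. No fit of these genes without replicates 20 and 21 is given. Macrophage genes, 2 of 7 of which were higher in cSCC in both comparisons, summed to 837, 1512, 2042 and 362 CPM in cSCC, 210 to 856 CPM in NS and 255 to 955 CPM in AK. Of this sum Cd14 alone was 603, 727, 1022 and 114 CPM in cSCC, against 9.58 to 54.5 CPM in NS and 9.95 to 98.9 CPM in AK. In cSCC 18 the rest of the list ran from 4.86 CPM (Emr1) to 91.7 CPM (Cd68). Skeletal muscle genes summed to 8327 CPM in cSCC 21 and to 511 to 940 CPM in the other 3, against 599 to 7745 CPM in NS and 24.9 to 4988 CPM in AK. In cSCC 21 nearly all of this sum was Acta1 at 6859 CPM and Ckm at 1445 CPM. The rest of the list, Myh4, Myh1, Myh2, Tnnt3 and Mylpf, stood there at 5.29, 2.48, 2.81, 6.12 and 5.95 CPM. Tnnt3 was at least 217 CPM and Mylpf at least 93.5 CPM in NS. Fibroblast genes summed to 1278 to 5459 CPM in cSCC, 1028 to 7703 CPM in NS and 1128 to 4623 CPM in AK. Sebaceous and adipocyte genes ran from 403 to 3000 CPM in cSCC, 649 to 5198 CPM in NS and 1232 to 3377 CPM in AK, and Awat2, a sebocyte enzyme, was at 0 in all 4 cSCC samples. Of 10 immediate early genes, which can respond within minutes to tissue handling, 9 were tested. Junb and Ier3 were higher in cSCC than in NS, Junb, Ier2 and Ier3 were higher in cSCC than in AK, and Zfp36 was higher in AK than in NS. Their sum was 482, 1265, 543 and 959 CPM in cSCC, 291 to 957 CPM in NS and 236 to 1026 CPM in AK. The part of these transcripts in the results for the 10 stress genes was not tested.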

How the data were processed

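Skin mRNA of 8 NS, 8 AK and 4 cSCC samples was analysed from 1 table of raw gene counts that the authors deposited, 22090 genes by 20 samples. The study's methods give trimming with Trimmomatic 0.36, HISAT2 alignment to GRCm38 and StringTie, while the submitters' processing notes name HISAT2 2.0.5 and featureCounts 1.5.2 with other builds, so the build and the strand setting of the counts are uncertain. Groups were taken from the labels. No mouse is labelled, so no pairing was used.

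Counts were tested for each pair of groups with edgeR 4.0.16 in R 4.3.3 (filterByExpr, TMM, quasi-likelihood test), with Benjamini-Hochberg adjustment over all genes tested. DEGs had an adjusted p below 0.05 and a fold change above 1.5 or below 0.67. CPM use TMM factors over all 20 samples. The fit was tested on simulated counts with planted changes. Of the planted changes tested, 88.3% were recovered for AK vs. NS, 56.5% for cSCC vs. NS and 52.3% for cSCC vs. AK. False calls numbered 4, 3 and 2. A gene that is not a DEG in cSCC may therefore still differ. Exon lengths, overlaps and gene coordinates came from GENCODE M21 (GRCm38), with 95.3% of table symbols matched, and promoters from RefSeq (GRCm38.p6), where all 10 genes matched. The floor of 3 counts covers counting error only.

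The 10 genes and the lists were chosen with earlier results of these data known. All 10 were named, and of each pathway list every DEG where 5 or fewer were called and otherwise the 3 with the largest change; 1 such gene is not reported here. Alternatives were DESeq2 1.42.0, limma 3.58.1 (voom), other scaling and filters, 1 fit of all samples, a pseudocount of 0.1, leaving out samples, and library totals without hemoglobin genes.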

Additional observations from a re-analysis of the deposited data

Results flagged for a closer look

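In each of the 30 combinations of a stress gene and a group, the highest and lowest samples were compared with the rest by Dixon's ratio at the 95% level, which chance passes in about 1 of 20 groups. Chac1 in cSCC replicate 21, at 18.03 CPM, lay apart from the other 3 cSCC samples by a gap of 0.958 of the group's range. Herpud1 in AK replicate 16, at 43.7 CPM, lay below the other 7 AK samples by a gap of 0.588 of the range.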

How the results depend on the processing

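Of the 10 stress genes, the count of DEGs between AK and NS was 0 under every alternative run except without the fold limit, where it was 1 (Hspa5). Between cSCC and NS, where 3 were called, DESeq2 and a filter of at least 10 counts in every sample each gave 5, and library size alone and limma each gave 1. Between cSCC and AK, where 3 were called, the filter of at least 10 counts gave 5, and library size alone, no filter, limma, and leaving out cSCC replicates 20 and 21 each gave 1. Leaving out 1 sample at a time gave 0 to 0, 2 to 4 and 0 to 3 DEGs in the 3 comparisons. Shares of all genes with DESeq2, limma and the other filters are not given here, so these counts have no background beside them. Hspa5 in cSCC vs. NS was a DEG under all 9 other settings (log2 1.02 to 1.31). Herpud1 and Xbp1 became DEGs in cSCC vs. NS with DESeq2, with the filter of at least 10 counts, and without cSCC 18. In cSCC vs. AK, Ddit3 became a DEG under 1 of the 9 other settings and Xbp1 under 2. Each also did so in 1 of the 12 fits that left out a sample. The 2 genes whose cSCC and NS levels did not overlap, Hspa5 and Xbp1, became 0 with library totals. With hemoglobin counts taken out of the total, an alternative chosen after seeing the data, they were Hspa5 and Ppp1r15a.

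The count over the pathway lists was 7 for AK vs. NS, and became 11 with DESeq2, 4 with library size alone, 4 with at least 10 counts, 12 with limma and 0 with all 20 samples in 1 fit (1 to 11 leaving out 1 sample). For cSCC vs. NS it was 20, and became 9 with library size alone and 13 with limma (13 to 22). For cSCC vs. AK it was 24, and became 12 with library size alone, 15 with no filter and 11 with limma (12 to 28).

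Signs that turned were those of differences that passed no threshold, all small except that of Chac1 in cSCC vs. NS (1.24). In AK vs. NS, Atf4 became -0.083, -0.0525 and -0.0752 and Ppp1r15a -0.0473, -0.0208 and -0.0578 with library size alone, upper quartile scaling and at least 10 counts, and Xbp1 became 0.0208 with limma. In cSCC vs. NS, Trib3 became -0.17 with library size alone and Chac1 -0.10 without cSCC 20 and 21. In cSCC vs. AK, Hsp90b1 became 0.0201, 0.00107, 0.12, 0.10 and 0.15 with DESeq2, upper quartile scaling, at least 10 counts, limma, and without cSCC 20 and 21. Leaving out 1 sample, the ranges were -0.0563 to 0.0853 (Atf4), -0.123 to 0.0433 (Xbp1), -0.142 to 0.0096 (Herpud1) and -0.0589 to 0.174 (Ppp1r15a) in AK vs. NS, -0.0131 to 1.49 for Chac1 in cSCC vs. NS and -0.138 to 0.042 for Hsp90b1 in cSCC vs. AK. The cause of these changes was not tested. Chac1 and Trib3 are limited by depth in cSCC 20, where each had 3 counts. No paired analysis was possible because the labels give no mouse and the groups share no replicate numbers.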
